A study of Homo sapiens with 9 samples.

Results

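The MHC class I and antigen presentation genes examined here were HLA-B, HLA-C, HLA-E, B2M, TAP1, TAP2, TAPBP, PSMB8 and PSMB9. They were given by name and make up 9 of the 59293 genes that had at least 1 transcript in the quantification. Estimated read counts and transcripts-per-million (TPM) values of all their transcripts were summed per gene symbol, and all 9 passed the filter on low counts that left 15139 genes for testing. The RNA came from 9 poly(A) libraries of MCF10A-YAP cells, a non-transformed human breast epithelial line in which constitutively active YAP, the transcriptional co-activator held back by the Hippo pathway, is expressed. In 3 libraries the cells carried the vector TRAM2-KO1 and in 3 the vector TRAM2-KO2, each with its own sgRNA against TRAM2, a component of the translocon of the endoplasmic reticulum (ER). The 3 control libraries came from the same YAP-expressing cells with a non-targeting sgRNA, so all groups shared active YAP, transduction and antibiotic selection. The design text of the series instead lists overexpression of TRAM2 and of YAP, and the groups used here follow the labels of the samples. The cells were selected populations in which no isolation of single clones was described, and both guides share a single set of control libraries. The letters A, B and C name the libraries of a group, and p-values measure the spread between these libraries, which may be technical.

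Class I molecules present peptides from inside the cell to cytotoxic T cells. Peptides are cut by the proteasome, including its immunoproteasome form, and are carried into the ER by the transporter TAP. There, an assembly of chaperones called the peptide-loading complex holds the class I heavy chain with its light chain, beta-2 microglobulin, until a peptide is bound. In epithelial cells these genes are expressed at a basal level, and interferons and NF-kB raise them through short motifs in their promoters. The comparisons ask whether the transcripts of this pathway differ between cells with and without targeting of TRAM2, and only RNA was measured.

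The deposited libraries held 21.7 to 27.6 M estimated reads, with 14384 to 14943 genes at 10 reads or more. TRAM2 itself served as the check of the labels. Its level was 219, 209.9 and 203 CPM (counts-per-million) with TRAM2-KO1, 216, 211.5 and 210.5 CPM with TRAM2-KO2, and 481, 464 and 475 CPM in control. Its log2 fold change was -1.17 ± 0.0326 (SE, n = 3 libraries per group, adjusted p = 4.93e-08) with TRAM2-KO1 and -1.15 ± 0.0325 (adjusted p = 4.7e-08) with TRAM2-KO2, in edgeR's quasi-likelihood test with Benjamini-Hochberg adjustment over all genes tested, which gave every adjusted p below unless another test is named. Basal epithelial markers differed widely in level. KRT5, a basal keratin, had 1040 to 1260 CPM, and KRT17, EGFR, ITGA6, ITGB4 and SFN had 208 CPM or more in every library. KRT14, another basal keratin, had only 14 to 21.9 CPM and CDH3 had 40.3 to 67.6 CPM. TP63, a basal transcription factor, reached no more than 3 reads. Leukocyte markers summed to 1.57 to 1.79 CPM with TRAM2-KO1, 2.175 to 2.771 CPM with TRAM2-KO2 and 1.68 to 2.05 CPM in control. PTPRC, the pan-leukocyte phosphatase, had at most 1 read in any library, and CD3E, CD3D, MS4A1 and TYROBP had 0. CSF1R had the most of the list, with up to 51 reads (0.816 to 1.9 CPM), followed by CD14 with up to 13 and CD163 with up to 11.

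Of the 9 genes, 8 lie in the MHC on chromosome 6 and B2M lies on chromosome 15. In positions of the GENCODE annotation on GRCh37, TAPBP (ENSG00000231925) is at chr6:33267471-33282061 on the minus strand, HLA-C (ENSG00000204525) at chr6:31236526-31239907 on the minus strand and B2M (ENSG00000166710) at chr15:45003556-45011049 on the plus strand. PSMB8, PSMB9 and TAP1 are neighbours, and PSMB8-AS1, an antisense RNA that overlaps them, held 4 to 10 reads per library. Whether reads were assigned by strand is not given in the sources used here, so reads of overlapping genes may be mixed.

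TAPBP, B2M and TAP1 are shown with their promoters because the interferon and NF-kB motifs known from class I promoters can be seen in them, and because they include the gene that fell most and the gene that rose. RefSeq promoters (GRCh38.p14, 250 bases before to 50 bases after the start) were matched for 8 of the 9 genes in 10 windows. Capitals mark matches to GAAANNGAA, letters like the interferon-stimulated response element, and to GGGANTTTC, letters like an NF-kB site, on either strand. The TAPBP window is chr6:33314029-33314328 (minus strand), the B2M window chr15:44711267-44711566 (plus strand) and the TAP1 window chr6:32853655-32853954 (minus strand).
TAPBP: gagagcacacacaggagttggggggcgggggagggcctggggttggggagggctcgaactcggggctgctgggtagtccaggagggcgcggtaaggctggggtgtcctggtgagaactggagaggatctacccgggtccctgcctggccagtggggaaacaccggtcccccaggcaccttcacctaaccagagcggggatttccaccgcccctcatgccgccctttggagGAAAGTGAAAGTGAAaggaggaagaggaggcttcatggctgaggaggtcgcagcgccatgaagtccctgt
B2M: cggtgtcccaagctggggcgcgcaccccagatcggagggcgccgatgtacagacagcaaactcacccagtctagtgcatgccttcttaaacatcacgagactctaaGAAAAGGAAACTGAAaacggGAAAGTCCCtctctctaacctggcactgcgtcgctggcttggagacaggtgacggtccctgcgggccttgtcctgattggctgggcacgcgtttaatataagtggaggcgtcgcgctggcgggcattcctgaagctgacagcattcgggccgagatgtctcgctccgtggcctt
TAP1: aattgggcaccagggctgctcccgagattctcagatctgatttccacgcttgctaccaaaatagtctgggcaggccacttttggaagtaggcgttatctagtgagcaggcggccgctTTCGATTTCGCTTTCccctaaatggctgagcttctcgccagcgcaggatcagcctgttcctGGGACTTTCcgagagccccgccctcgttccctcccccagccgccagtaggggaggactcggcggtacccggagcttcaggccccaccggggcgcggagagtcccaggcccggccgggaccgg

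In each of these 3 windows the interferon-like letters occur as an overlapping pair. The matches start 20 and 14 bases before the start in TAPBP, 144 and 138 bases before it in B2M, and 133 and 127 bases before it in TAP1. B2M and TAP1 also hold a match to GGGANTTTC, 124 and 72 bases before their starts. These letters are a narrow form of an NF-kB-like site. The TAPBP window holds ggggatttcc, which they do not match, so the search does not show that TAPBP lacks such a site. TAP2 and PSMB8 each hold a single interferon-like match, at 58 and 3 bases before the start. A search for TTCNNNGAA, letters like a gamma-activated site, found 2 of the 8 genes, TAP1 in a second window and PSMB8. By count, 5 of the 10 windows held GAAANNGAA, against 8.11% of the 35116 RefSeq promoters of the same length, and 0.701% of those promoters held at least 2 matches. TTCNNNGAA was found in 7.66% and GGGANTTTC in 1.28% of all promoters. These matches describe letters only. B2M, TAPBP and TAP1 alike hold the interferon-like pair, and TAP1 did not pass the test below with either guide.

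Levels can be compared between genes only per length, so TPM was used for the order of the members, leaving out transcripts with an effective length under 100 nt. B2M, the light chain shared by all class I molecules, was the most abundant, at a mean of 1101 ± 83.9 TPM with TRAM2-KO1, 1021 ± 22.0 TPM with TRAM2-KO2 and 893 ± 23.97 TPM in control (SD, n = 3 each). HLA-C, a classical heavy chain, followed at 106 TPM with TRAM2-KO1, 118 TPM with TRAM2-KO2 and 119.7 TPM in control. HLA-E, a non-classical heavy chain read by NK cell receptors, came next at 58.1 TPM with TRAM2-KO1, 63.3 TPM with TRAM2-KO2 and 64.7 TPM in control. Each of these steps was wider than the spread of the libraries in all 3 groups.

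Below them stood HLA-B, TAP2 and TAPBP. HLA-B, the other classical heavy chain measured, averaged 26.5 TPM with TRAM2-KO1, 27.7 TPM with TRAM2-KO2 and 31.3 TPM in control. TAP2, a subunit of the peptide transporter, averaged 28.2 TPM with TRAM2-KO1, 34.9 TPM with TRAM2-KO2 and 28.7 TPM in control. TAPBP, which encodes tapasin, the bridge between TAP and the heavy chain, averaged 17.8 TPM with TRAM2-KO1, 22.5 TPM with TRAM2-KO2 and 27.2 TPM in control. In control, HLA-B, TAP2 and TAPBP overlapped as neighbours in the order. With either guide TAPBP lay below HLA-B and TAP2 in every library, and TAP2 and HLA-B overlapped with TRAM2-KO1 but not with TRAM2-KO2. TAP1, the partner subunit of TAP2, averaged 12.3 TPM with TRAM2-KO1, 13.3 TPM with TRAM2-KO2 and 12.4 TPM in control. PSMB8, an immunoproteasome subunit, averaged 11.1 TPM with TRAM2-KO1, 11.9 TPM with TRAM2-KO2 and 10.4 TPM in control, and overlapped TAP1 with both guides but not in control. PSMB9, a second immunoproteasome subunit, was lowest at 2.21 TPM with TRAM2-KO1, 2.04 TPM with TRAM2-KO2 and 2.31 TPM in control.

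**Figure D1:**
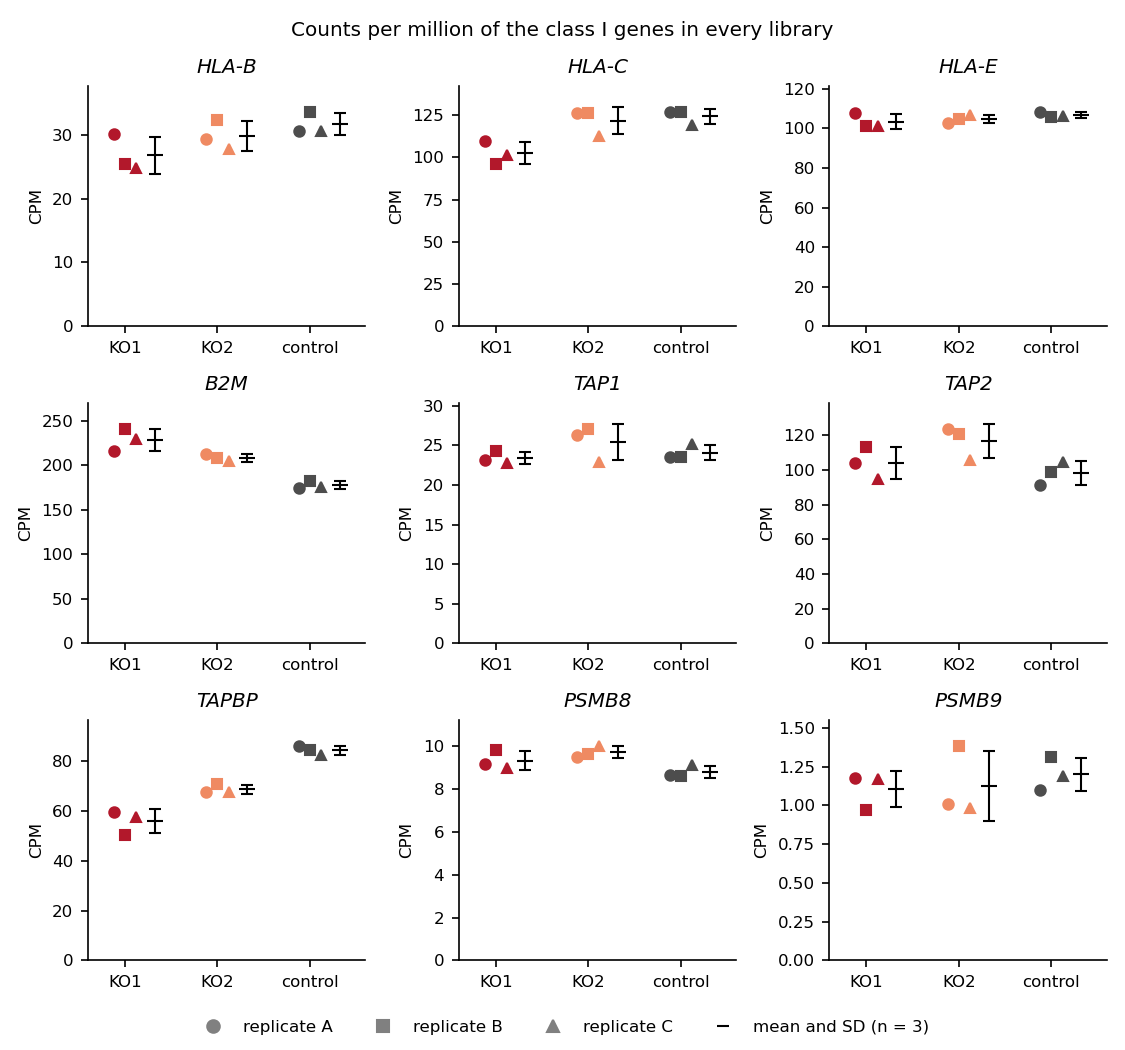
CPM of the 9 genes in each library (y axis, linear, 1 panel per gene), with TRAM2-KO1 at the left, TRAM2-KO2 in the middle and control at the right; points are libraries and bars are the mean ± SD of 3 libraries. TAPBP lies lower and B2M higher in all 6 knockout libraries than in any control library.

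With TRAM2-KO1, B2M rose and TAPBP and HLA-C fell, while the other 6 genes did not pass the test at an adjusted p of 0.05. Thus 1 of 9 genes rose and 2 of 9 fell, beside 0.753% of all genes tested that rose and 2.15% that fell. The median log2 fold change of the 9 genes was -0.05, against 0.01 over all genes tested. With TRAM2-KO2, B2M rose and TAPBP fell, 1 of 9 genes in each direction, beside 1.73% of all genes that rose and 2.49% that fell. The median here was -0.03, against -0.003 over all genes tested.

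TAPBP showed the largest change of the 9 genes with either guide. It had 59.6, 50.5 and 57.5 CPM with TRAM2-KO1, 67.5, 70.9 and 67.6 CPM with TRAM2-KO2, and 86.2, 84.4 and 82.4 CPM in control. No library of one group overlapped those of another, and the order was the same throughout, lowest with TRAM2-KO1 and highest in control. With TRAM2-KO1 it fell by 33.6%, which is -0.59 ± 0.0554 on the log2 scale (SE, adjusted p = 0.000199) with 95% bounds of -0.71 and -0.47. With TRAM2-KO2 it fell by 18.6%, which is -0.30 ± 0.0545 on the log2 scale (SE, adjusted p = 0.0120) with 95% bounds of -0.42 and -0.18. The TRAM2-KO1 call was kept in all 21 alternative analyses, between -0.64 and -0.50, and the TRAM2-KO2 call in 15 of 21. The TRAM2-KO2 call was lost without control library A (adjusted p = 0.0760), control B (0.0621), TRAM2-KO2 A (0.0575) or TRAM2-KO2 C (0.0574), and also with length offsets (0.0983) and with limma on TPM (0.171), with the log2 fold change between -0.32 and -0.26 in all 21.

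The TAPBP reads came almost entirely from a single protein-coding transcript, TAPBP-234, which took 96.7 to 98.2% of the reads of the gene. Its own level was 17.0 ± 1.29 TPM with TRAM2-KO1, 21.5 ± 1.35 TPM with TRAM2-KO2 and 25.9 ± 0.36 TPM in control (SD, n = 3 each). The lower level of the gene was therefore also that of its main transcript.

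B2M had 216, 241 and 229 CPM with TRAM2-KO1, 213, 208.5 and 204 CPM with TRAM2-KO2, and 175, 183 and 176 CPM in control. All 6 knockout libraries were above all 3 control libraries. It rose by 28.6% with TRAM2-KO1, a log2 fold change of 0.36 ± 0.0407 (SE, adjusted p = 0.000738), and by 17.2% with TRAM2-KO2, a log2 fold change of 0.23 ± 0.0407 (SE, adjusted p = 0.00986). Leaving out any of the 9 libraries kept both calls, between 0.32 and 0.40 for TRAM2-KO1 and between 0.21 and 0.25 for TRAM2-KO2. On the TPM scale with limma the B2M difference was 0.30 (adjusted p = 0.0786) with TRAM2-KO1 and 0.19 (adjusted p = 0.255) with TRAM2-KO2. With offsets for transcript length, the TRAM2-KO2 difference was 0.18 (adjusted p = 0.207).

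The annotation of the B2M transcripts limits what this sum stands for. Of its reads, 85.6% were assigned to transcripts annotated as targets of nonsense-mediated decay and 0.359% to transcripts annotated as protein coding. The most-read one, B2M-202 of 407 nt, averaged 905 ± 95.2 TPM with TRAM2-KO1, 819 ± 36.1 TPM with TRAM2-KO2 and 759.5 ± 17.1 TPM in control. B2M-204, which has no defined coding sequence, had 266, 0 and 0 reads with TRAM2-KO1, 301, 193 and 198 reads with TRAM2-KO2, and 0 reads in all 3 control libraries. It took up to 4.53% of the B2M reads with TRAM2-KO1 and 3.52 to 5.29% with TRAM2-KO2. Short transcripts that share most of their sequence are hard to separate.

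A further 3 transcripts listed among those of B2M in the deposited tables have no gene in the annotation used here, and their place in a table does not show to which gene they belong, so they were left out of the sum. Together they held 3587, 3580 and 4042 reads with TRAM2-KO1, 3871, 3619 and 4505 reads with TRAM2-KO2, and 3423, 3066 and 3014 reads in control. That would be 38.0 to 44.6% of a joint sum with B2M. If they were counted as B2M, its level would be 348, 406.5 and 386.5 CPM with TRAM2-KO1, 357, 351.5 and 369 CPM with TRAM2-KO2, and 315, 308.5 and 299.5 CPM in control. The log2 fold change would then be 0.31 (adjusted p = 0.00763) with TRAM2-KO1 and 0.22 (adjusted p = 0.0323) with TRAM2-KO2, so both calls were kept.

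HLA-C had 109, 96.3 and 102 CPM with TRAM2-KO1, 126, 126 and 113 CPM with TRAM2-KO2, and 127, 127 and 119 CPM in control. The TRAM2-KO1 libraries lay below every control library, and the TRAM2-KO2 libraries overlapped control. It fell by 17.4% with TRAM2-KO1, a log2 fold change of -0.28 ± 0.0576 (SE, adjusted p = 0.0293). With TRAM2-KO2 its difference from control was -0.03 ± 0.057 (log2, SE), with adjusted p = 0.905 and a 95% interval of -0.16 to 0.10. The TRAM2-KO1 call was kept in 11 of 21 alternatives. Among the libraries it was lost without control A (adjusted p = 0.123), control B (0.113), control C (0.0520), TRAM2-KO1 B (0.0739) or TRAM2-KO1 C (0.0998), and it was also lost with length offsets (0.346), protein-coding transcripts only (0.469), limma on TPM (0.326), the GC trend removed with TRAM2-KO1 A left out (0.0852) and TRAM2-KO1 A alone (0.447).

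HLA-B did not pass the test with either guide. It had 30.1, 25.4 and 24.8 CPM with TRAM2-KO1, 29.3, 32.3 and 27.8 CPM with TRAM2-KO2, and 30.6, 33.6 and 30.6 CPM in control. Every TRAM2-KO1 library was below every control library, with a log2 fold change of -0.24 ± 0.0831 (SE, adjusted p = 0.172). With TRAM2-KO2 the value was -0.09 ± 0.0821 (SE, adjusted p = 0.735) and the libraries overlapped. Without TRAM2-KO1 A, the TRAM2-KO1 difference of HLA-B was -0.33 and passed the test (adjusted p = 0.0171). Heavy-chain genes are near-identical over long stretches and highly polymorphic, so reads may be shared between HLA-B, HLA-C and their relatives, and the reference transcripts may not be the alleles of the line.

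HLA-E did not pass the test with either guide, and its interval was narrow. It had 108, 101 and 101 CPM with TRAM2-KO1, 103, 105 and 107 CPM with TRAM2-KO2, and 108, 106 and 106 CPM in control. With TRAM2-KO1 the value was -0.05 (log2, adjusted p = 0.516), its 95% interval running from -0.12 to 0.03. With TRAM2-KO2 it was -0.03 (log2, adjusted p = 0.820), with bounds of -0.10 and 0.05.

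HLA-B and HLA-C are also the members with the highest GC content, 58.9% and 60.1% in their most-read transcript, beside a median of 48.1% over all genes tested. TRAM2-KO1 B and C differed from the others in how counts followed GC content. The Spearman correlation over genes between a library's deviation and GC was 0.19, -0.532 and -0.365 in the TRAM2-KO1 libraries (A, B, C), 0.404, 0.165 and -0.0995 in TRAM2-KO2 and 0.21, 0.257 and 0.146 in control. After each library's own GC trend had been taken out, the TRAM2-KO1 log2 fold change was -0.15 (adjusted p = 0.0307) for HLA-C and -0.13 (adjusted p = 0.331) for HLA-B, each over 1.5 times smaller than before. TAPBP, with 57.1% GC, stayed at -0.52 (adjusted p = 2.71e-05) with TRAM2-KO1 and -0.29 (adjusted p = 0.00126) with TRAM2-KO2. B2M, with 47.2% GC, stayed at 0.34 (adjusted p = 0.000115) with TRAM2-KO1 and 0.24 (adjusted p = 0.00123) with TRAM2-KO2.

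**Figure D2:**
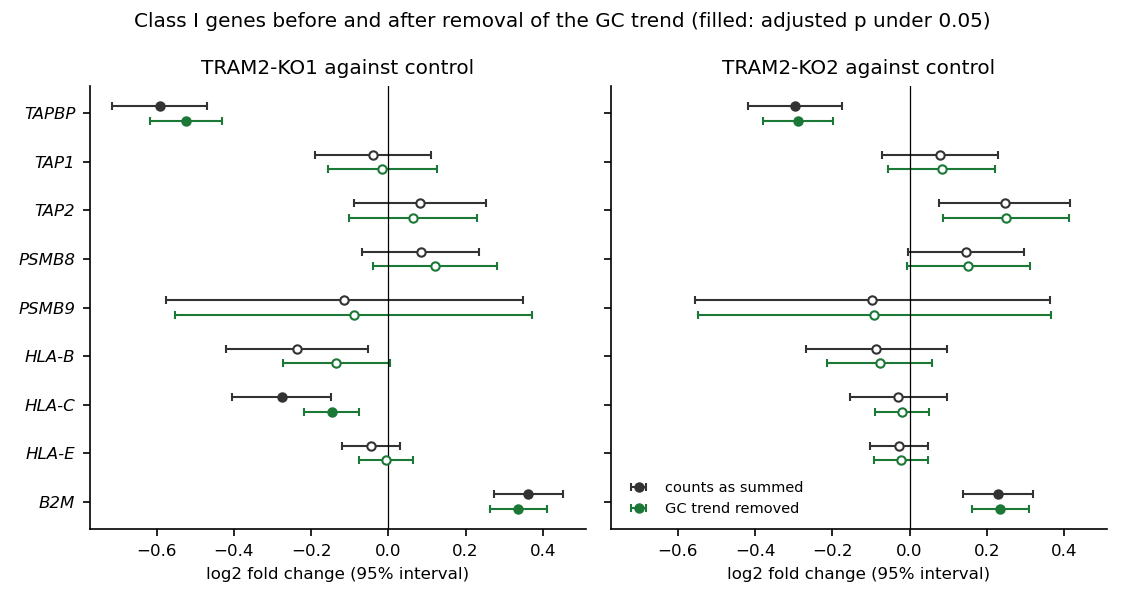
Log2 fold change (x axis) of each of the 9 genes against control, for TRAM2-KO1 in the left panel and TRAM2-KO2 in the right, with counts as summed (dark) and with each library's GC trend removed (green); filled symbols passed an adjusted p of 0.05 and bars are 95% intervals. HLA-C and HLA-B move toward 0 with TRAM2-KO1 after removal (HLA-C -0.28 and -0.15), whereas TAPBP and B2M keep their place.

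The peptide transporter did not pass the test with either guide. TAP2 had 104, 113 and 95.04 CPM with TRAM2-KO1, 124, 120.4 and 105.5 CPM with TRAM2-KO2, and 91.3, 98.9 and 104.6 CPM in control. The TRAM2-KO2 libraries were above every control library by a small margin, with a log2 fold change of 0.25 ± 0.0765 (SE, adjusted p = 0.128). DESeq2 on the same counts gave 0.25 (adjusted p = 0.0291), and edgeR without the count filter gave 0.26 (adjusted p = 0.0105), so this call depends on the tool and filter. A transcript without a gene is listed among those of TAP2 as well, with 0 to 471 reads per library, and adding it gave 0.22 (adjusted p = 0.00967). With TRAM2-KO1 the TAP2 log2 fold change was 0.08 (adjusted p = 0.616), with overlapping libraries. TAP1 had 23.2, 24.3 and 22.8 CPM with TRAM2-KO1, 26.3, 27.1 and 22.9 CPM with TRAM2-KO2, and 23.5, 23.6 and 25.1 CPM in control. Its groups overlapped, with log2 fold changes of -0.04 (adjusted p = 0.796) with TRAM2-KO1 and 0.08 (adjusted p = 0.690) with TRAM2-KO2. The TAP1 sum also mixes transcripts, since 65.8% of its reads were on a transcript with no defined coding sequence and 33.0% on protein-coding ones.

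The immunoproteasome subunits did not pass the test either. PSMB8 had 9.17, 9.84 and 8.99 CPM with TRAM2-KO1, 9.52, 9.65 and 10.03 CPM with TRAM2-KO2, and 8.65, 8.61 and 9.14 CPM in control. Its log2 fold change was 0.08 (adjusted p = 0.615) with TRAM2-KO1 and 0.15 (adjusted p = 0.359) with TRAM2-KO2, where the libraries lay above control. PSMB9 had 1.18, 0.970 and 1.17 CPM with TRAM2-KO1, 1.01, 1.38 and 0.985 CPM with TRAM2-KO2, and 1.10, 1.31 and 1.19 CPM in control. At 21 to 35 reads per library its log2 fold changes of -0.11 ± 0.209 (SE, adjusted p = 0.829) with TRAM2-KO1 and -0.10 ± 0.207 (SE, adjusted p = 0.914) with TRAM2-KO2 could not show a change of the size seen in TAPBP with TRAM2-KO2.

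**Figure D3:**
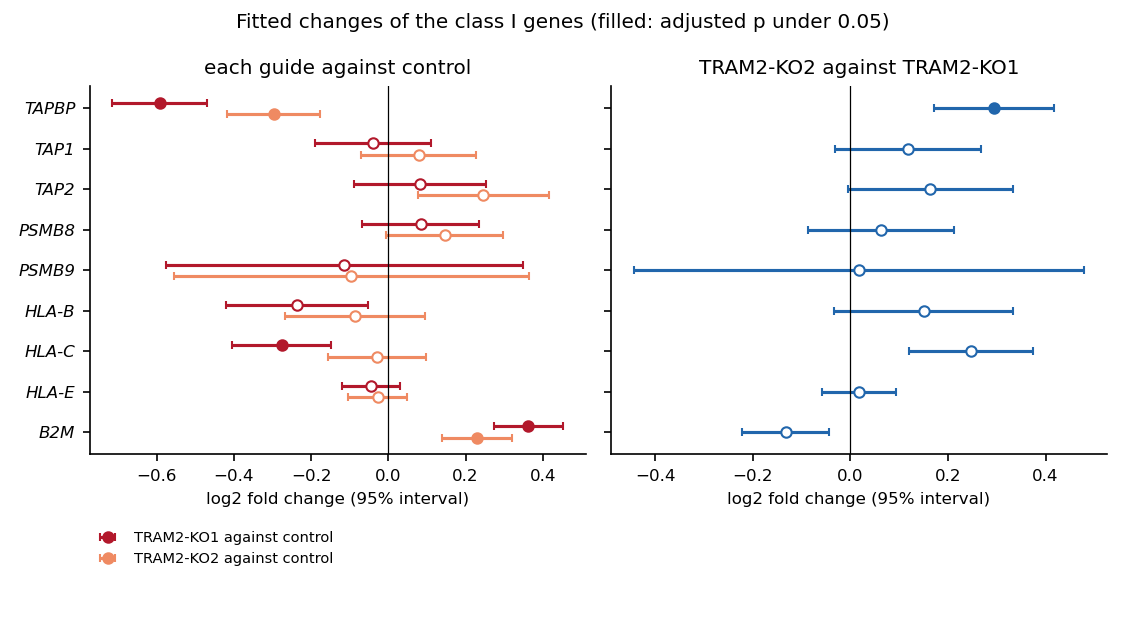
Log2 fold changes (x axis) of the 9 genes with 95% intervals, in the left panel for TRAM2-KO1 and TRAM2-KO2 against control and in the right panel for TRAM2-KO2 against TRAM2-KO1; filled symbols passed an adjusted p of 0.05. TAPBP and B2M are filled for both guides on the left, HLA-C for TRAM2-KO1 alone, and TAPBP is the only filled symbol on the right.

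The guides were also set against each other, since they gave the same level of TRAM2 (KO2 minus KO1 log2 fold change 0.01, adjusted p = 0.879). TAPBP was higher with TRAM2-KO2 than with TRAM2-KO1 by 22.7%, which is 0.29 ± 0.0557 on the log2 scale (SE, adjusted p = 0.0251) with 95% bounds of 0.17 and 0.42. In this fit 1 of the 9 genes was higher and none was lower, beside 1.41% of all genes that were higher and 0.865% that were lower. The call was lost without control A (adjusted p = 0.0537), control B (0.0542), TRAM2-KO1 C (0.0706), TRAM2-KO2 A (0.0793), TRAM2-KO2 B (0.122) or TRAM2-KO2 C (0.0619). It was also lost with length offsets (0.112) and with limma on TPM (0.113). With TRAM2-KO1 A alone for its guide, the TAPBP difference was 0.21 on the log2 scale. HLA-C was above TRAM2-KO1 in every TRAM2-KO2 library, with a log2 fold change of 0.25 ± 0.0575 (SE, adjusted p = 0.0571). HLA-C passed this test with DESeq2 (adjusted p = 0.0023), without the count filter (0.0040), with RLE factors (0.0486), with the replicate block (0.0419) and without TRAM2-KO1 A (0.0110) or TRAM2-KO2 C (0.0345). B2M was below TRAM2-KO1 in every TRAM2-KO2 library, with -0.13 ± 0.0404 (SE, adjusted p = 0.121). Of the 9 genes, 8 had a positive value, beside 7246 of the 15139 genes tested, and the median was 0.12, against -0.007 over all genes tested. With each library's GC trend removed, HLA-E (-0.015) and PSMB9 (-0.0015) were negative as well, beside B2M (-0.10).

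Tapasin works with 3 further ER chaperones in peptide loading, and some of these changed with it. CALR, which encodes calreticulin, the lectin chaperone that holds the heavy chain until a peptide is loaded, had 778, 778 and 804 CPM with TRAM2-KO1, 789, 763 and 795 CPM with TRAM2-KO2, and 958, 953 and 914 CPM in control. It fell with both guides, by a log2 fold change of -0.26 ± 0.0294 (SE, adjusted p = 0.00075) with TRAM2-KO1 and -0.27 ± 0.0294 (SE, adjusted p = 0.00053) with TRAM2-KO2, and the 2 guides differed by -0.01 (adjusted p = 0.912). The CALR call with TRAM2-KO1 was lost with length offsets (adjusted p = 0.0973) and limma on TPM (0.130), and that with TRAM2-KO2 with limma (0.0802). PDIA3, the disulfide isomerase that is linked to tapasin, had 583, 604 and 618 CPM with TRAM2-KO1, 566, 548 and 587 CPM with TRAM2-KO2, and 690.2, 687 and 660.0 CPM in control. Its log2 fold change was -0.18 ± 0.0344 (SE, adjusted p = 0.0216) with TRAM2-KO1 and -0.26 ± 0.0344 (SE, adjusted p = 0.00169) with TRAM2-KO2. The TRAM2-KO1 call was lost without control A (adjusted p = 0.102) or control B (0.0954). PDIA3 also lost it with length offsets (0.233) and limma on TPM (0.247), and lost the TRAM2-KO2 call with limma (0.0802). CANX, which encodes calnexin, the membrane-bound relative of calreticulin, had 1122, 1170 and 1179 CPM with TRAM2-KO1, 1071, 1092 and 1110 CPM with TRAM2-KO2, and 1206, 1208 and 1166 CPM in control. It fell with TRAM2-KO2 by 0.13 on the log2 scale (adjusted p = 0.0307) and had -0.04 (adjusted p = 0.438) with TRAM2-KO1. The CANX call with TRAM2-KO2 was lost without any of 6 libraries, all 3 controls and all 3 of TRAM2-KO2 (adjusted p 0.0619 to 0.137). It was also lost without the count filter (0.0853), with length offsets (0.603) and with limma on TPM (0.730). These chaperones fold many other glycoproteins as well.

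**Figure D4:**
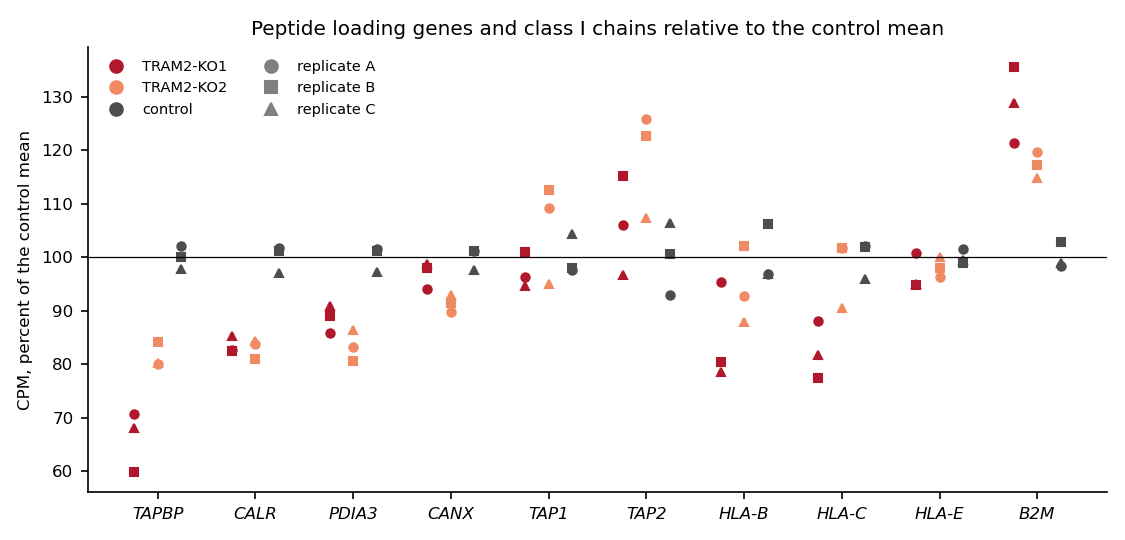
Level of each gene of the peptide-loading complex in every library as a percent of the control mean CPM (y axis), with TRAM2-KO1, TRAM2-KO2 and control from left to right within each gene; the line marks the control mean and symbols the replicate letters. TAPBP lies at 59.9 to 70.7% with TRAM2-KO1 and 80.0 to 84.1% with TRAM2-KO2, CALR and PDIA3 below control with both guides, and B2M above it.

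In the list of 19 antigen processing and loading genes, CALR and PDIA3 fell with TRAM2-KO1 and none rose, beside the 2.15% of all genes that fell, and the median of the list was 0.01 (log2). With TRAM2-KO2, CALR, PDIA3 and CANX fell and none rose, beside 2.49% of all genes that fell, with a median of -0.04. ERAP1, the ER aminopeptidase that trims peptides to fit the groove, had 19.0, 15.8 and 20.0 CPM with TRAM2-KO1, 18.7, 18.3 and 17.5 CPM with TRAM2-KO2, and 22.5, 21.5 and 22.9 CPM in control. Its libraries were below control with both guides, but the values of -0.28 (adjusted p = 0.0968) with TRAM2-KO1 and -0.30 (adjusted p = 0.0728) with TRAM2-KO2 did not pass the test. ERAP2, its relative, had a log2 fold change of -0.14 (adjusted p = 0.592) with TRAM2-KO1 and -0.41 (adjusted p = 0.115) with TRAM2-KO2. TAPBPL, a tapasin relative that edits peptides outside the loading complex, had -0.30 (adjusted p = 0.347) with TRAM2-KO1 and -0.18 (adjusted p = 0.685) with TRAM2-KO2 at 2.33 to 3.48 CPM. LNPEP, a peptidase of endosomes, had -0.22 (adjusted p = 0.112) with TRAM2-KO1 and -0.21 (adjusted p = 0.120) with TRAM2-KO2. The 8 proteasome genes of the list, the catalytic subunits PSMB5, PSMB6, PSMB7 and PSMB10, the structural subunit PSMA3 and the activators PSME1, PSME2 and PSME3, lay between -0.05 and 0.07 with TRAM2-KO1 and between -0.10 and 0.05 with TRAM2-KO2. The cytosolic peptidases NPEPPS, TPP2, THOP1 and BLMH did not pass the test with either guide. Between the guides none of the 19 genes passed edgeR's test or DESeq2's, and 3 had an unadjusted p under 0.05. In edgeR's test of this comparison, 21.3% of all genes had an unadjusted p of 0.0564 or less.

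In a list of 13 genes for turnover and retrotranslocation of heavy chains, SEL1L fell with TRAM2-KO1, 1 of 13, beside 2.15% of all genes. With TRAM2-KO2, SEL1L, STT3A and STT3B fell, 3 of 13, beside 2.49% of all genes. STT3A and STT3B stand in the list but act in N-glycosylation, so SEL1L was the only turnover gene that fell with either guide. SEL1L, the adaptor of the HRD1 ubiquitin ligase in ER-associated degradation, had 94.3, 102.9 and 96.0 CPM with TRAM2-KO1, 90.6, 97.9 and 101 CPM with TRAM2-KO2, and 117, 118 and 120.3 CPM in control. Its log2 fold change was -0.28 ± 0.0459 (SE, adjusted p = 0.00826) with TRAM2-KO1 and -0.30 ± 0.0458 (SE, adjusted p = 0.00433) with TRAM2-KO2. In that order, the SEL1L calls were lost with length offsets (adjusted p = 0.313 and 0.324) and with limma on TPM (0.336 and 0.420). STT3A and STT3B, the catalytic subunits of the 2 oligosaccharyltransferases that add N-glycans in the ER, had -0.15 (adjusted p = 0.0226) and -0.14 (adjusted p = 0.0191) with TRAM2-KO2. The STT3A call was lost without any single control or TRAM2-KO2 library (adjusted p 0.0515 to 0.122), and the STT3B call likewise except without TRAM2-KO2 C (0.0643 to 0.0946). In that order, both calls were also lost without the count filter (0.0568 and 0.0712), with length offsets (0.167 and 0.6375) and with limma on TPM (0.2945 and 0.739). No gene of the list rose with either guide.

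Regulators of class I transcription did not pass the test. Of 28 transcription factors and signalling genes, 27 were tested and none passed edgeR's test or DESeq2's with either guide. An unadjusted p under 0.05 was found for 3 with TRAM2-KO1 and 4 with TRAM2-KO2. In edgeR's test with TRAM2-KO1, 9.76% of all genes had an unadjusted p of 0.0168 or less and 41.45% had 0.214 or less. The share of all genes under 0.05 lies between these. With TRAM2-KO2, 15.9% of all genes had an unadjusted p of 0.0572 or less. NLRC5, the class I transactivator, was scarce and scattered, at 2.98, 0.416 and 1.95 CPM with TRAM2-KO1, 2.95, 2.37 and 2.55 CPM with TRAM2-KO2, and 2.16, 2.30 and 0.656 CPM in control, with log2 fold changes of 0.10 (adjusted p = 0.945) with TRAM2-KO1 and 0.62 (adjusted p = 0.688) with TRAM2-KO2. IRF1, an interferon regulatory factor that binds the interferon-like letters, had log2 fold changes of -0.06 (adjusted p = 0.774) with TRAM2-KO1 and -0.12 (adjusted p = 0.602) with TRAM2-KO2.

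Of 54 interferon-stimulated genes, 43 were tested, and their median difference from control on the log2 scale was 0.04 for TRAM2-KO1 and 0.02 for TRAM2-KO2. With TRAM2-KO1, 1 rose and 1 fell, and with TRAM2-KO2, 1 fell, beside the shares of all genes given above (0.753% and 2.15% with TRAM2-KO1, 2.49% falling with TRAM2-KO2). With each guide 9 of the 43 had an unadjusted p under 0.05 in edgeR's test. Of all genes tested with TRAM2-KO1, 9.76% had an unadjusted p of 0.0168 or less and 41.45% had 0.214 or less. The share of all genes under 0.05 lies between these and is not given here. With TRAM2-KO2, 15.9% of all genes had an unadjusted p of 0.0572 or less. IFI44L, an interferon-induced gene named after its values were seen, had 1.14, 1.39 and 1.13 CPM with TRAM2-KO1, 1.31, 1.34 and 1.09 CPM with TRAM2-KO2, and 0.816, 0.492 and 0.697 CPM in control. Its log2 fold change of 0.86 ± 0.238 (SE, adjusted p = 0.0925) with TRAM2-KO1 and 0.90 ± 0.235 (SE, adjusted p = 0.0658) with TRAM2-KO2 did not pass the test, though all its knockout libraries lay above control. With TRAM2-KO1, TRIM22, an antiviral ubiquitin ligase, rose by 0.19 ± 0.035 on the log2 scale (SE, adjusted p = 0.0139), and LGALS3BP, a secreted galectin-binding glycoprotein, fell by 0.34 ± 0.0753 (SE, adjusted p = 0.0377). With TRAM2-KO2, IFITM3, a membrane protein that blocks virus entry, fell by 0.28 ± 0.0691 (SE, adjusted p = 0.0498) and none rose. These 3 calls depended on the libraries and on the settings. The IFITM3 call was lost when any of 7 of the 9 libraries was left out (adjusted p 0.0844 to 0.184), the LGALS3BP call when any of 6 was (0.0633 to 0.152) and the TRIM22 call when any of 4 was (0.0568 to 0.0812). All 3 were also lost with length offsets (adjusted p = 0.211 for IFITM3, 0.242 for LGALS3BP and 0.351 for TRIM22) and with limma on TPM (0.212, 0.207 and 0.426 in the same order). IFITM3 and LGALS3BP were lost with protein-coding transcripts only (0.0776 and 0.230), and IFITM3 also with RLE factors (0.0536) and the replicate block (0.0667). CXCL10 and CMPK2, interferon-induced genes, had 0 reads in all 9 libraries.

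Other class I and class I-like molecules included 12 tested of 15. None rose or fell with TRAM2-KO1 in edgeR's test or DESeq2's. In edgeR's test with TRAM2-KO1, 1 gene had an unadjusted p under 0.05. Of all genes, 9.76% had 0.0168 or less and 41.45% had 0.214 or less, so the share under 0.05 lies between these. With TRAM2-KO2, ULBP3, a stress-induced ligand of the NK receptor NKG2D, had 10.8, 10.9 and 11.1 CPM, against 14.3, 13.2 and 13.9 CPM in control, and fell by 0.33 ± 0.0658 on the log2 scale (SE, adjusted p = 0.0188). With TRAM2-KO1 it had 11.6, 13.0 and 11.7 CPM, and its log2 fold change of -0.19 did not pass the test (adjusted p = 0.167). The TRAM2-KO2 call was lost with DESeq2 (adjusted p = 0.0602) and without control A or C or any TRAM2-KO2 library (adjusted p 0.0599 to 0.0909). It was also lost with length offsets (0.164) and limma on TPM (0.322). With TRAM2-KO2, 3 of the 12 genes had an unadjusted p under 0.05 in edgeR's test, beside 15.9% of all genes at 0.0572 or less. Class II genes were nearly silent. Only 4 of 13 passed the count filter, none of these passed edgeR's test or DESeq2's or had an unadjusted p under 0.05 with either guide, HLA-DRA, HLA-DRB1 and HLA-DQB1 had 0 reads in all libraries, and CD74, the invariant chain, had at most 2.

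**Figure D5:**
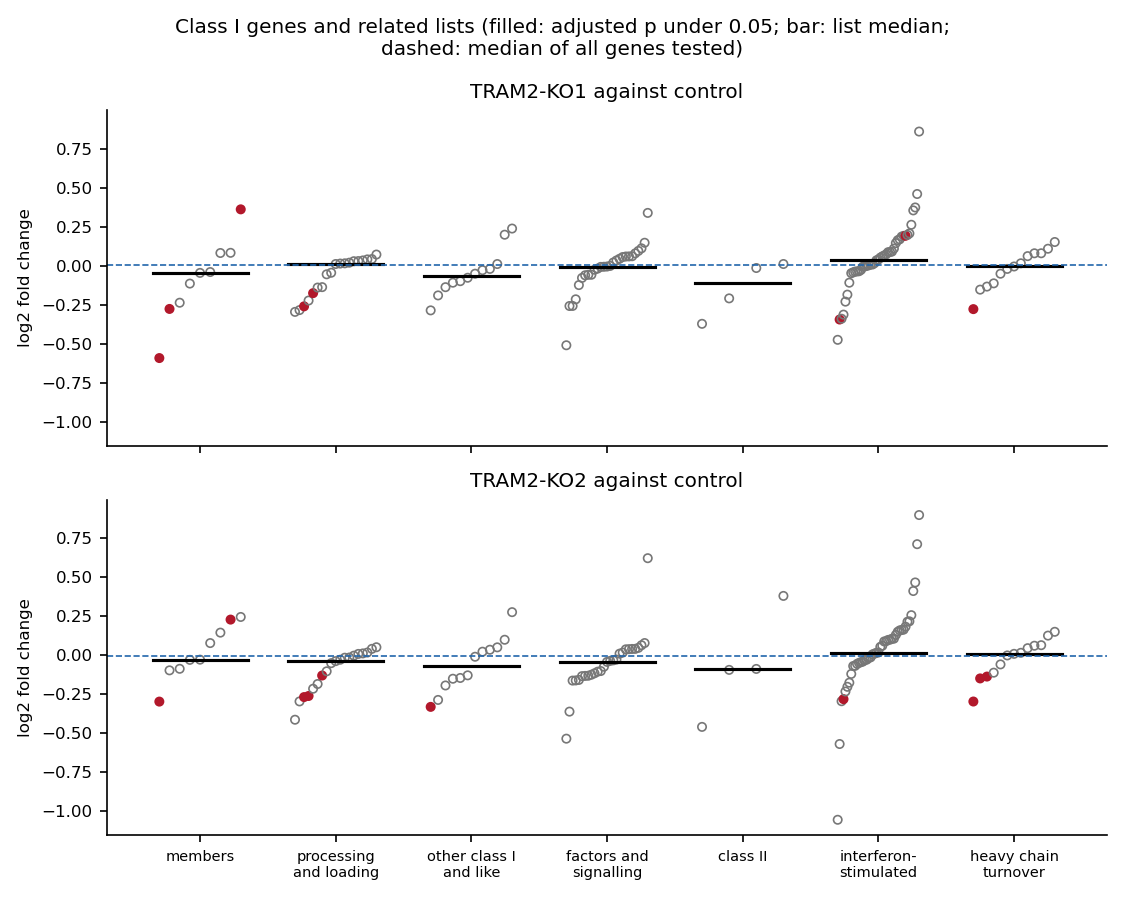
Log2 fold change (y axis) of every tested gene in the 9-gene set and in the 6 pathway lists, for TRAM2-KO1 against control and for TRAM2-KO2 against control in separate panels; each point is a gene, bars are list medians, the dashed line is the median of all genes tested and filled points passed an adjusted p of 0.05. Most points lie close to 0 in every list, and TAPBP is the lowest filled point among the 9 genes at -0.59 and -0.30.

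Over the 9 libraries the levels of some members moved together. The Pearson correlation of log2 CPM was -0.972 between B2M and TAPBP, 0.864 between HLA-B and HLA-C, 0.864 between HLA-C and TAPBP, 0.8 between TAP1 and TAP2 and -0.485 between PSMB8 and PSMB9. These points share the 3 groups and the GC trends of the libraries, so the values are descriptions. Among 9230 genes with a mean of at least 10 CPM, the genes most like B2M were CD59 (0.979), ATP2C1 (0.974), AIG1 (0.971), PRDX6 (0.962) and TMEM267 (0.961). The genes most like HLA-B were LEMD2 (0.969), PEX6 (0.955), PRXL2B (0.952), NDUFS7 (0.952) and RPS6KB2 (0.948). For TAP1 they were WDR83OS (0.917), LRRC41 (0.917), INTS5 (0.872), DPH2 (0.866) and EEF2KMT (0.855).

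The basal epithelial markers also moved with the groups. Their summed level was 3476 to 3724 CPM with TRAM2-KO1, 4118 to 4205 CPM with TRAM2-KO2 and 3869 to 4002 CPM in control, so that TRAM2-KO1 lay below control and TRAM2-KO2 above it. Of 8 markers tested, 2 fell and none rose with TRAM2-KO1, and 1 fell and 3 rose with TRAM2-KO2, beside the shares of 2.15% falling with TRAM2-KO1 and 2.49% falling and 1.73% rising with TRAM2-KO2. Between the guides, 6 of the 8 were higher and none lower with TRAM2-KO2 than with TRAM2-KO1, beside 1.41% and 0.865% of all genes. The part of these markers in the changes of TAPBP, B2M and HLA-C was not tested. In bulk RNA, fewer cells with a transcript and less of it per cell cannot be told apart.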

How the data were processed

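Poly(A) RNA of 9 libraries, 3 per group, was sequenced, and per the labels and the study's methods the authors trimmed reads with cutadapt and quantified transcripts with Salmon. Their versions were not given in the sources used here. The authors deposited estimated counts, TPM and effective length for 226030 transcripts per library, and these were used as deposited. Of the transcripts, 220336 (97.5%) had a gene in GENCODE mapped to GRCh37. These held 98.4 to 98.5% of reads, and the other 1.51 to 1.55% were left out, except that those listed among the transcripts of a member were added to it in 1 alternative. Estimated counts were summed per gene symbol and rounded.

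Genes were filtered with filterByExpr (minimum count 10), scaled by TMM and tested with edgeR 4.0.16 (glmQLFit and glmQLFTest, two-sided, R 4.3.3) with all 9 libraries in 1 model of 3 groups, and p-values were adjusted over 15139 genes by Benjamini-Hochberg at 0.05. Fold changes were the fitted coefficients without a prior count, and a prior count of 2 was used only for log2 CPM. The common biological coefficient of variation was 5.86%. The alternatives were RLE factors, DESeq2 1.42.0, no count filter, length offsets, removal of each library's GC trend (lowess span 0.3), a replicate block with and without it, protein-coding transcripts only, limma 3.58.1 on log2(TPM + 1), leaving out each library, and 3 alternatives added after the data were seen. The steps were tested on simulated data. Tables and figures were made with Python 3.11.15, pandas 2.3.3, numpy 2.4.6 and matplotlib 3.10.9.

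The members and lists were chosen with earlier results of these data known. Named were the 9 members, of each list up to 5 genes with the smallest p past the test, all antigen processing and loading genes, NLRC5, IRF1, TRAM2, and the 5 genes most like each of B2M, HLA-B and TAP1. The markers, PSMB8-AS1, the genes at or near 0 reads and genes given beside them were named after their values were seen. Some genes of the lists are not reported here and were left out of the list counts and sums. Whether the replicate letters pair libraries could not be settled, and the main test used no pairing.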

Additional observations from a re-analysis of the deposited data

Results flagged for a closer look

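Among the members and the pathway lists, 3 genes differed between the guides by the test of TRAM2-KO2 against TRAM2-KO1 over all genes in edgeR, where 213 of the 15139 genes were higher and 131 lower. For TAPBP the log2 fold change of TRAM2-KO2 minus TRAM2-KO1 was 0.29 (adjusted p = 0.0251), a call lost in the alternatives given above. For TRIM22 it was -0.21 ± 0.0349 (SE, adjusted p = 0.0147), at 51.9, 52.1 and 52.4 CPM with TRAM2-KO2, against 58.5, 62.3 and 60.1 CPM with TRAM2-KO1. For LGALS3BP it was 0.36 ± 0.075 (SE, adjusted p = 0.0364), at 82.4, 83.5 and 76.0 CPM with TRAM2-KO2, against 69.8, 54.6 and 63.3 CPM with TRAM2-KO1. No library overlapped between the guides for any of the 3. The TRIM22 call was lost without TRAM2-KO1 C (adjusted p = 0.0622), TRAM2-KO2 A (0.0671) or TRAM2-KO2 B (0.0777). It was also lost with length offsets (0.279) and limma on TPM (0.361). The LGALS3BP call was lost without any of 7 libraries (adjusted p 0.0526 to 0.1499). It was also lost with length offsets (0.139), protein-coding transcripts only (0.357) and limma on TPM (0.107). Both guides share the control libraries, and TRAM2 itself differed by 0.01.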

How the results depend on the processing

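Over the named genes, 902 of 1071 alternative values kept their direction and their side of the threshold, 123 lost a call, 14 gained one and 32 turned sign. The changes of sign were all in values that did not pass the test either way, with a lowest adjusted p of 0.632. The cause was not tested for these or for the counts below, except that fewer libraries or genes enter where some are left out.

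Of the 9 members, 3 passed the test with TRAM2-KO1, against 1 with protein-coding transcripts only and 1 with limma on TPM. HLA-C alone was lost with length offsets (adjusted p = 0.346) and with the GC trend removed and TRAM2-KO1 A left out (0.0852). With TRAM2-KO2, 2 passed, against 3 with DESeq2, without the count filter or with the unassigned transcripts added (TAP2 was gained in each), 0 with length offsets, 1 with protein-coding transcripts only and 0 with limma. Between the guides 1 passed, against 2 with RLE factors, DESeq2, no count filter or the replicate block, and 0 with length offsets, limma or TRAM2-KO1 A alone. Without single libraries the counts were 2 to 4 with TRAM2-KO1, 1 to 2 with TRAM2-KO2 and 0 to 3 between the guides. Protein-coding transcripts only leaves 0.359% of the B2M reads and cannot test B2M.

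Of the pathway genes, 5 passed with TRAM2-KO1, against 0 with length offsets or limma, 9 with the GC trend removed and 2 with TRAM2-KO1 A alone. With TRAM2-KO2, 8 passed, against 2 with length offsets, 15 with the GC trend removed and 0 with limma. Between the guides 2 passed, against 1 with length offsets or protein-coding transcripts, 5 with the GC trend removed with or without TRAM2-KO1 A, 4 with the replicate block and GC removal, and 0 with limma or TRAM2-KO1 A alone. Without single libraries the counts were 2 to 15 with TRAM2-KO1, 3 to 9 with TRAM2-KO2 and 0 to 14 between the guides, with 15 and 14 both without TRAM2-KO1 A. The replicate block gave 3, 2 and 2 members and 6, 8 and 2 pathway genes for the 3 comparisons in the same order. Deviations of same-letter libraries correlated between -0.101 and 0.35, and those of libraries with other letters between -0.48 and 0.335. With so few libraries, each with its own GC trend, this cannot settle whether the letters pair them. The block says nothing of weaker effects.

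Signs turned as follows. With TRAM2-KO1 against control, HLA-E had 0.00102 with protein-coding transcripts and 0.00859 with TRAM2-KO1 A alone. TAP1 had 0.00167 with length offsets and 0.00497 with the GC trend removed and TRAM2-KO1 A left out, and TAP2 had -0.0325 with length offsets and -0.0492 with limma. NLRC5 had -0.124 with protein-coding transcripts, -0.293 without control C, -0.489 without TRAM2-KO1 A and -0.364 with GC removal and TRAM2-KO1 A left out. With TRAM2-KO2 against control, HLA-C had 0.174 with protein-coding transcripts and 0.0249 without TRAM2-KO2 C. Between the guides, HLA-B had -0.27 with length offsets, -0.241 with limma and -0.0123 with TRAM2-KO1 A alone. HLA-E had -0.0150 with GC removal, -0.0152 with the block added, -0.0165 with protein-coding transcripts, -0.00588 with GC removal and TRAM2-KO1 A left out, and -0.0346 with TRAM2-KO1 A alone. B2M had 0.185 with protein-coding transcripts, and PSMB8 had -0.000133 with GC removal and TRAM2-KO1 A left out. PSMB9 had -0.136 with length offsets, -0.00147 with GC removal, -0.0142 with the block added, -0.0412 with protein-coding transcripts, -0.0851 with limma, -0.0586 without TRAM2-KO1 B, -0.145 without TRAM2-KO2 B and -0.0651 with TRAM2-KO1 A alone. TRAM2 had -0.00373 without TRAM2-KO1 C and -0.0400 with TRAM2-KO1 A alone. The highest or lowest values on the main side when single libraries were left out were 0.532 for NLRC5 with TRAM2-KO1, -0.0562 for HLA-C with TRAM2-KO2, and 0.106 for PSMB9 and 0.0412 for TRAM2 between the guides.

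Over all genes with TRAM2-KO1, 114 rose and 326 fell, against 602 and 1350 without TRAM2-KO1 A, 16 and 96 with length offsets and 7 and 79 with limma. With TRAM2-KO2, 262 rose and 377 fell, against 540 and 566 with the GC trend removed, 67 and 88 with length offsets and 52 and 57 with limma. GC removal without TRAM2-KO1 A, TRAM2-KO1 A alone for its guide, and the sum with unassigned transcripts were chosen after seeing the data, and the lone library is then assumed to vary like the other groups. PSMB9 and NLRC5 are limited by depth.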
